A study of Mus musculus with 13 samples.

Results

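Aortas of mice given auranofin together with atorvastatin were set against aortas of mice given the Western diet alone, gene by gene, to find changes that both aortas of the combination group share. The combination group holds 2 of the 13 libraries of the series and the Western diet group (WD) holds 5, all chosen by their labels. Of 56953 genes in the table, 18055 had enough counts to be tested, and all of these were compared. The series asked whether auranofin affects the progression of atherosclerosis.

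All mice were ApoE-/-, a strain without apolipoprotein E that develops atherosclerosis, and all ate the Western diet for 16 weeks from 6 weeks of age. The combination group (n = 2 libraries) received auranofin at 3 mg/kg/day and atorvastatin at 10 mg/kg/day in that diet. The auranofin group (n = 3) received 3 mg/kg/day and the atorvastatin group (n = 3) 10 mg/kg/day, each drug alone. WD mice (n = 5) received no drug. RNA came from the whole aorta, so fewer cells of a type and less RNA per cell cannot be told apart in any value below. Which mouse gave which library is not in the labels, and p-values measure only the spread between these samples.

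Auranofin carries gold, was developed as an antirheumatic drug, and inhibits thioredoxin reductase, a selenoenzyme that keeps thioredoxin reduced. Atorvastatin, a statin, blocks cholesterol synthesis, and cells that run short of sterol raise the synthesis enzymes through the transcription factor SREBP2. An atherosclerotic mouse aorta holds smooth muscle, endothelium, fibroblasts, macrophages that take up lipid, and some blood. Fat lies around it and heart muscle at its root, and either can come along when the vessel is dissected.

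The combination libraries held 22932778 counts (library 1) and 19703683 counts (library 2), and the WD libraries 22219720 to 26079566. Genes of the mitochondrial genome took 11.3% and 19.1% of counts in the combination libraries and 9.36% to 26.9% in WD (exact permutation test, two-sided p = 0.571). With 2 against 5 libraries no exact permutation test can give a p below 0.0952. Eif2s3y, a gene of the Y chromosome, had 45.9 and 47.1 CPM (a count divided by its library size after TMM scaling and put on a common total, the unit of all levels below) in the combination libraries and 38.6 to 57.0 CPM in WD.

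Few genes left the WD range in both combination libraries. Library 1 lay above all 5 WD libraries for 1141 genes (6.32% of those tested) and below them for 1073 (5.94%). Library 2 lay above for 3108 genes (17.2%) and below for 3002 (16.6%). Both libraries lay above all WD libraries for 278 genes (1.54%) and below them for 316 (1.75%). At 296 genes, about as many as on either shared side, they lay on opposite sides of the WD range. Were combination and WD libraries interchangeable, each shared side would hold about 1 gene in 21, a larger share than either found. Gaps were small: 18 of the 278 higher genes and 19 of the 316 lower ones were separated from the nearest WD library by 1.5-fold or more. Each WD library left out raised both counts. They were 450 above and 475 below without WD 1, 377 and 501 without WD 2, and 705 and 752 without WD 3. Without WD 4 they were 499 and 561, and without WD 5 382 and 442. Leaving out a WD library narrows the WD range, so a rise alone does not show dependence on that library.

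**Figure D1:**
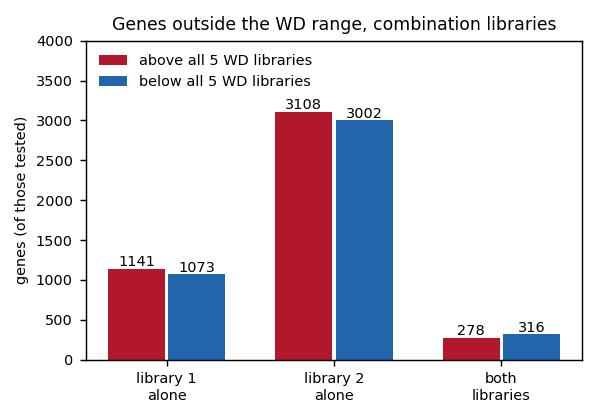
Number of tested genes at which a combination library lay above (red) or below (blue) all 5 WD libraries, for library 1 alone, library 2 alone and both together. The bars for both libraries stand at 278 and 316, against 1141 and 1073 for library 1 and 3108 and 3002 for library 2.

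No gene passed the test across all genes. With edgeR's quasi-likelihood test and Benjamini-Hochberg adjustment, 0 genes (0.0%) had an adjusted p under 0.05, and the smallest adjusted p was 0.915. At an unadjusted p under 0.05, 171 genes were higher (0.947%) and 94 lower (0.521%). Of these 265 genes, 117 were also among those with both combination libraries outside the WD range, 52 above and 65 below. The count of 265 was 823 without combination 1, 118 without combination 2, 614 without WD 3 and 545 without WD 4. DESeq2 passed 4 genes (0.0222%), and limma with quality weights passed 0 (0.0%). Without combination 1, 10 genes passed in edgeR; without combination 2, 0 did. Each gene below is therefore given by its values, with a log2 fold change and standard error (SE) from edgeR that did not pass.

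Platelet and megakaryocyte genes formed the list with the most members, by count, above WD in both combination libraries. The erythroid list had the larger share, 44.4% of 9 tested members against 35.7% of 14. Of 14 tested members of the platelet list, 5 lay above all WD libraries in both combination libraries, against 1.54% of all genes tested: Itga2b, Gp5, Ppbp, Treml1 and Tubb1. In the edgeR fit 12 of 14 were higher and 2 lower, with a median log2 fold change of 2.08, against −0.01 over all genes tested. Library 1 alone lay above the WD range at 11 members, against 6.32% of all genes, and library 2 at 5, against 17.2%. Summed over the list the levels were 373 and 307 CPM in the combination libraries and 221 to 333 CPM in WD (exact permutation test, two-sided p = 0.190). The list was drawn up with earlier results of these data known, so its count is a description.

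Itga2b (ENSMUSG00000034664) encodes integrin alpha IIb, a subunit of the platelet fibrinogen receptor. It had 25.7 CPM in combination 1 and 7.32 CPM in combination 2, against 5.08, 4.86, 2.74, 3.80 and 4.21 CPM in WD 1 to WD 5. Both combination libraries lay above all others of the series, library 1 by far, and the log2 fold change was 2.00 (SE 0.40). Ppbp, the precursor of the platelet chemokine CXCL7, had 47.0 and 11.95 CPM in the combination libraries, against 5.23, 9.61, 3.68, 3.10 and 5.73 CPM in WD. Auranofin 1 reached 14.2 CPM of Ppbp, so combination 2 was not above every other library for this gene; its log2 fold change over WD was 2.44 (SE 0.74). Gp5, glycoprotein V of the von Willebrand factor receptor, had 4.47 and 0.850 CPM in the combination libraries, against 0.501, 0.180, 0.123, 0.329 and 0.406 CPM in WD.

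Tubb1, the tubulin of the platelet marginal band, had 5.10 and 1.51 CPM with both drugs and 0.608 CPM or less in WD, where WD 2 and WD 5 had 0. Treml1, a receptor of platelet alpha granules, had 4.81 and 1.04 CPM, against 0.204 to 0.901 CPM in WD. Alox12, the 12-lipoxygenase of platelets, was in no list but among the genes with the smallest p, with 20.8 and 6.00 CPM against 3.00 to 5.78 CPM in WD and a log2 fold change of 1.61 (SE 0.42). Combination 1 was thus several times above WD for each of these genes, while combination 2 was little above the highest WD library for Treml1 and Alox12.

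At other members library 1 alone lay above the WD range. Gp9, the smallest chain of the same von Willebrand factor receptor, had 7.88 CPM in combination 1 and 1.51 CPM in combination 2, with WD between 0.245 and 2.22 CPM. Nrgn, neurogranin, also abundant in platelets, had 28.7 and 5.34 CPM, against 2.301 to 6.44 CPM in WD. By ratio to the highest of the other 12 libraries, the leading genes of combination 1 were Nrgn (4.45 times), Gp9 (3.54), Itga2b (3.52), Alox12 (3.47), Ppbp (3.31) and Rgs18, a brake on G protein signalling in platelets (2.10).

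The members that platelets share with vessel cells did not follow. Vwf, von Willebrand factor, also made by endothelium, had 133 and 186 CPM in the combination libraries and 117 to 222 CPM in WD. Itgb3, the beta subunit that pairs with Itga2b and also occurs in vessel wall cells, had 74.6 and 73.5 CPM, against 26.8 to 94.0 CPM in WD. Pf4, platelet factor 4, also found in resident macrophages, had 23.2 and 12.1 CPM, against 8.66 to 45.4 CPM in WD. Gata1, the transcription factor of megakaryocytes and red cell precursors, was too low to be tested, at 0.333 and 0.0472 CPM with both drugs and 0.180 CPM or less in WD.

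The size of the platelet result rests on combination 1. At an unadjusted p under 0.05, 10 of the 14 members were higher, against 0.947% of all genes; without combination 1 none was and the median log2 fold change was 0.63, and without combination 2 it was 2.76 with 11 such members. Without combination 1 the 5 members above all WD libraries stand against 17.1% of all genes, since combination 2 alone is out of the WD range so often. How much blood or clot each aorta held is not given in the labels, and its part in the result was not tested.

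**Figure D2:**
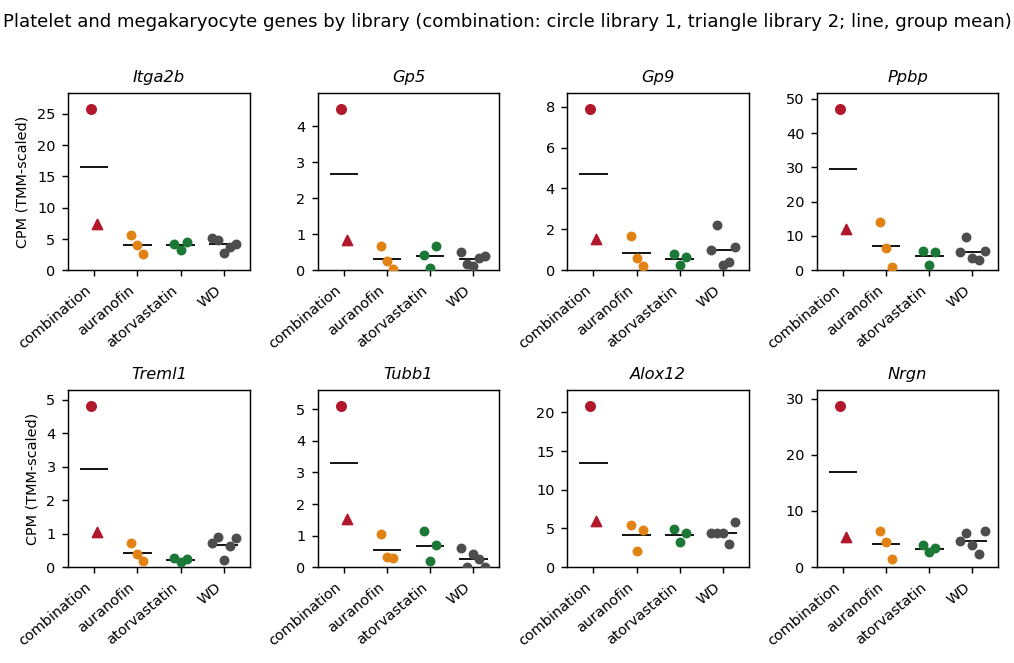
Level of 8 platelet and megakaryocyte genes in each library (CPM, linear axis from 0), by group, with the group mean as a line; in the combination group the circle is library 1 and the triangle library 2. Library 1 is highest in all 8 panels, with Itga2b at 25.7 CPM, while library 2 lies at 7.32 CPM for that gene and inside the WD range for Gp9 and Nrgn.

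Promoters of 3 of these genes are shown because the genes were high together in combination 1 while their start regions differ in the motif of GATA factors, the regulators of megakaryocyte genes. Sequences are from RefSeq (GRCm38.p6) and run from 250 bases before to 50 bases after the start site, 5′ to 3′; capitals mark GATAA or its reverse complement TTATC. The intervals are chr16:30310732-30311031 (minus strand) for Gp5, chr6:87777820-87778119 (plus strand) for Gp9 and chr11:102469834-102470133 (minus strand) for Itga2b.
Gp5 promoter: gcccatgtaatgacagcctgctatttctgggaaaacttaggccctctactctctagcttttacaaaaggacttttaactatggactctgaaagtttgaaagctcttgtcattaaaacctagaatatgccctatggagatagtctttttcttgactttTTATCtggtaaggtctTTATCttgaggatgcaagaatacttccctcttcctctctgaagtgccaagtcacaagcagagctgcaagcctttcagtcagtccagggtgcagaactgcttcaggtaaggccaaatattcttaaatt
Gp9 promoter: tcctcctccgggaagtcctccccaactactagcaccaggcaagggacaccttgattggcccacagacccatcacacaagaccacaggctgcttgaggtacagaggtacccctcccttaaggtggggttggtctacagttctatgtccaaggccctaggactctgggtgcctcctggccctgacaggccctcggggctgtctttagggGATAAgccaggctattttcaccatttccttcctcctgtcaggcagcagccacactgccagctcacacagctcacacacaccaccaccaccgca
Itga2b promoter: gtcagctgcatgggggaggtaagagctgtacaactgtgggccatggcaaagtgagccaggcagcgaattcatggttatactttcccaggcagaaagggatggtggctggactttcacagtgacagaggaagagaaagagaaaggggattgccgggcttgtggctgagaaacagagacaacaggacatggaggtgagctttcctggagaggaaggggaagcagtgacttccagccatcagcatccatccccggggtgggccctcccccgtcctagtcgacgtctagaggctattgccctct
The Gp5 window held the motif at 2 places, that of Gp9 at 1 and that of Itga2b at none. Of the 16 listed members 13 had a promoter in the RefSeq table, and of these 6 held the motif on either strand, against 25.4% of 32851 mouse promoters of this length. Among the 5 members with both combination libraries above WD, Gp5 was the only holder. A match is a description of the letters in this window.

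Red cell genes gave a split picture. Of 9 tested erythroid members, 4 lay above all WD libraries in both combination libraries, against 1.54% of all genes tested. Slc4a1, the anion exchanger of the red cell membrane, had 1.70 and 2.17 CPM, against 0.107, 0.721, 0.409, 0.840 and 0.70995 CPM in WD. The gene was low everywhere, and combination 2 had more of it than combination 1, unlike in the platelet list.

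Car2, a carbonic anhydrase of red cells and other tissues, had 4.62 and 7.13 CPM, against 1.25 to 4.20 CPM in WD (log2 fold change 1.09, SE 0.46). The globins, which make up nearly all red cell message, lay inside the WD range. Hba-a1, an alpha globin, had 1500 and 724 CPM in the combination libraries and 318 to 3554 CPM in WD, with a log2 fold change of −0.31 (SE 0.89). Auranofin libraries, which share one of the drugs, had 4.92 to 9.62 CPM of Car2, and atorvastatin libraries 1.63 to 3.27 CPM.

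Por was among the other genes with both combination libraries above WD. It encodes cytochrome P450 reductase, which passes electrons from NADPH to P450 enzymes, to heme oxygenase and to squalene epoxidase. It had 138 and 137 CPM in the combination libraries, against 83.5, 100.05, 99.4, 96.4 and 95.5 CPM in WD, a log2 fold change of 0.54 (SE 0.19). All single-drug libraries were lower than the combination, at 91.8 to 107 CPM with auranofin and 85.1 to 126 CPM with atorvastatin.

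Rgs12, a regulator of G protein signalling, had 7.58 and 9.83 CPM, against 4.72 to 6.44 CPM in WD, and was above all 6 single-drug libraries too, which had 4.69 to 6.83 CPM. Its log2 fold change was 0.61 (SE 0.21) over WD, 0.84 (SE 0.23) over auranofin and 0.53 (SE 0.23) over atorvastatin. Fkbp5, a co-chaperone of the glucocorticoid receptor, had 27.3 and 42.5 CPM, against 16.1, 21.6, 16.3, 15.4 and 27.2 CPM in WD. Combination 1 and WD 5 were all but equal for Fkbp5, so its separation is thin. Zbtb16, a zinc finger transcription factor, had 13.3 and 15.1 CPM, against 4.38 to 10.4 CPM in WD, and atorvastatin 1 had more, at 32.9 CPM.

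Further genes lay above WD in both combination libraries. Sh3bgrl2 had 10.4 and 12.4 CPM, against 2.89 to 8.47 CPM in WD. Cd226, an adhesion receptor of platelets, NK and T cells, had 5.03 and 1.51 CPM, against 0.507 to 1.11 CPM in WD (log2 fold change 1.96, SE 0.50). Flcn, folliculin, a regulator of mTORC1 and lysosomal signalling, had 27.7 and 40.1 CPM, against 17.1 to 27.0 CPM in WD. Vars2, the mitochondrial valyl-tRNA synthetase, had 13.5 and 14.4 CPM, against 6.61 to 12.3 CPM in WD.

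Per1, a repressor of the circadian clock, had 64.2 and 33.7 CPM, against 27.7, 15.4, 30.9, 31.3 and 33.2 CPM in WD. With Bhlhe40, another clock repressor, at 94.9 and 70.9 CPM against 42.7 to 70.6 CPM in WD, it made 2 of 17 clock genes above WD in both libraries, against 1.54% of all genes tested, and both gaps to the nearest WD library were small. The count was 0 without WD 1, without WD 3, without WD 4 or with mitochondrial counts left out. With combination 2 left out, combination 1 alone lay above WD at 6, where the share over all genes was 6.73%. Clock outputs were far apart within groups: Dbp, a clock-driven transcription factor, had 173 and 27.2 CPM in the combination libraries and 12.7 to 212 CPM in WD. The labels give no hour of dissection, and its part was not tested.

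Foxs1, Dhrs3 and Plpp1 were among the genes with both combination libraries below WD (1.75% of those tested), and for each the 2 combination libraries lay close together. Foxs1, a forkhead transcription factor, had 9.32 and 9.92 CPM, against 24.7, 25.0, 18.6, 15.7 and 42.4 CPM in WD, and all 3 auranofin libraries were as low, at 3.43 to 9.94 CPM. Dhrs3, which reduces retinal to retinol and so limits retinoic acid, had 94.4 and 90.2 CPM, against 150, 145, 122, 112 and 158 CPM in WD, a log2 fold change of −0.57 (SE 0.23). Plpp1, a phosphatase of lysophosphatidic acid and other lipid phosphates, had 37.2 and 37.6 CPM, against 52.5, 63.7, 50.5, 43.5 and 43.7 CPM in WD (log2 fold change −0.44, SE 0.19). For Dhrs3 the single-drug libraries overlapped the combination, at 63.9 to 103 CPM with auranofin and 93.9 to 122 CPM with atorvastatin.

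A group of small decreases followed. Ddx18, an RNA helicase of ribosome assembly, had 29.6 and 26.9 CPM, against 31.9 to 42.5 CPM in WD. Tmem237, of the ciliary transition zone, had 13.3 and 12.1 CPM, against 14.8 to 25.6 CPM in WD, and Bbip1, of the BBSome that carries cargo to cilia, had 24.0 and 21.5 CPM, against 26.7 to 54.8 CPM in WD. Glt8d2 had 9.21 and 6.94 CPM, against 10.9 to 19.2 CPM in WD.

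Cdc45, of the replicative helicase, had 2.33 and 2.17 CPM, against 3.03 to 4.08 CPM in WD. Cit, citron kinase of cytokinesis, had 0.887 and 0.614 CPM, against 1.19 to 1.83 CPM in WD. Neither is in the cell cycle list, where of 21 tested genes 0 had both combination libraries below WD, against 1.75% of all genes tested. Of the 21, 13 were fitted lower, against 9207 of all 18055 genes tested. Wnt2, a Wnt ligand, had 0.703 and 0.803 CPM, against 0.859 to 4.80 CPM in WD.

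Acta1, the actin of skeletal muscle, had 0.814 and 0.283 CPM in the combination libraries, against 9.02, 2.04, 50.2, 15.5 and 19.6 CPM in WD, a log2 fold change of −5.09 (SE 1.86). Of 13 tested genes of fast skeletal muscle, Acta1 included, 12 were fitted lower, against 9207 of all 18055 genes tested. Their median log2 fold change was −2.56. Acta1 was the only 1 of the 13 with both combination libraries below WD, against 1.75% of all genes tested. The list sums were 57.4 and 27.6 CPM in the combination libraries and 32.9 to 213 CPM in WD (exact permutation test, two-sided p = 0.381). Combination 1 thus lay inside the WD range. The median was −1.59 without WD 3, −3.99 without combination 2 and −1.03 with limma, and WD 3 held the highest WD sum of the list, 213 CPM. Atorvastatin 1 and atorvastatin 2 had as little Acta1, at 0.302 and 0.494 CPM. The part of skeletal muscle left on the vessel was not tested. Serpina1e, Asb5, Tm6sf2, Tmem30b, Zfp811 and Rpl37rt were also below WD in both combination libraries, at 0.897 to 2.55 CPM; Serpina1e and Rpl37rt have near-identical copies in the genome, and their counts are uncertain.

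**Figure D3:**
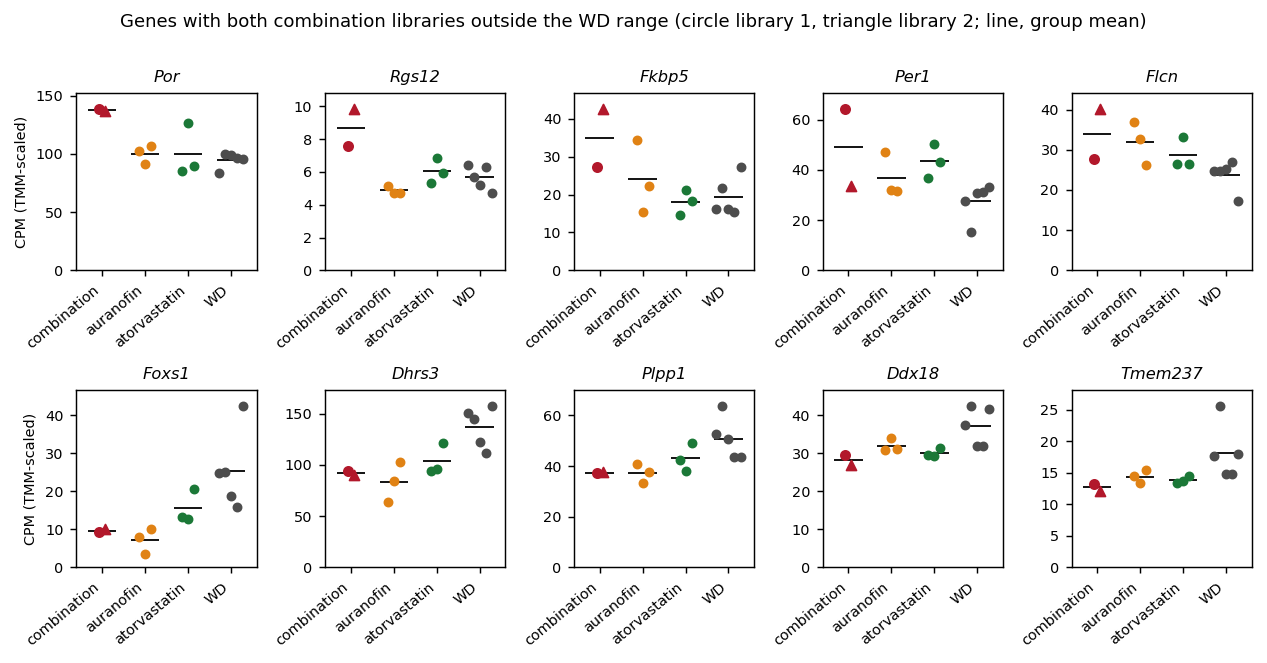
Level of 10 genes at which both combination libraries lay outside the WD range (CPM, linear axes from 0), 5 higher in the top row and 5 lower in the bottom row, with the mean of each group as a line. Por stands at 138 and 137 CPM in the combination libraries above every other library, while the auranofin libraries lie as low as the combination for Foxs1.

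None of the 22 drug target and plaque genes described here had both combination libraries on the same side outside the WD range. Over all genes tested 1.54% lay above and 1.75% below in both libraries, so 0 of 22 is near that background. Txnrd1, cytosolic thioredoxin reductase and a target of auranofin, had 48.4 and 63.7 CPM, against 57.8, 42.9, 45.3, 55.7 and 29.6 CPM in WD (log2 fold change 0.28, SE 0.27). Txnrd2, the mitochondrial form, had 10.6 and 18.2 CPM, against 9.56 to 16.1 CPM in WD. Of 18 tested genes of the thioredoxin system, 1 lay above WD in both libraries, against 1.54% of all genes: Sesn2, a stress-induced sestrin, with 8.80 and 8.55 CPM against 6.03 to 8.41 CPM in WD.

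NRF2 drives antioxidant genes when electrophiles reach the cell. Of 22 tested NRF2 targets, 0 had both combination libraries above WD (1.54% of all genes tested) or below it (1.75%), near that background. Of these targets 11 were fitted higher and 11 lower. Hmox1, heme oxygenase, had 52.9 and 45.6 CPM, against 11.2 to 67.3 CPM in WD, and Nqo1, a quinone reductase, had 19.8 and 15.4 CPM, against 17.1 to 34.9 CPM in WD. Mt1, a metallothionein that binds metals, had 165 and 167 CPM, against 61.6 to 462 CPM in WD.

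Hmgcs1, an early enzyme of cholesterol synthesis, had 41.5 and 89.3 CPM, against 37.8, 16.9, 58.9, 41.8 and 33.6 CPM in WD. Library 2 was above WD and library 1 was not (log2 fold change 0.79, SE 0.38). Single-drug libraries had 51.4 to 78.7 CPM of Hmgcs1 with auranofin and 57.6 to 75.7 CPM with atorvastatin. The log2 fold change of the combination was 0.05 (SE 0.43) over auranofin and 0.01 (SE 0.43) over atorvastatin. Over the 20 cholesterol synthesis genes, 11 were fitted higher and 9 lower, with a median log2 fold change of 0.04. Of the 20, 0 had both combination libraries above WD (1.54% of all genes tested) or below it (1.75%), near that background.

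Plaque genes of the same panel varied more within WD than between the groups. Cd68, a macrophage lysosomal protein, had 160 and 142 CPM, against 209, 350, 18.5, 174 and 25.5 CPM in WD, with a log2 fold change of −0.04 (SE 0.89). Spp1, osteopontin, had 2294 and 1852 CPM, against 131 to 2787 CPM in WD. Acta2, smooth muscle actin, had 13075 and 6320 CPM, against 8788 to 22512 CPM in WD, so library 2 lay below WD and library 1 did not. Vcam1, Klf2, Nos3, Ccl2, Il1b, Abca1, Abcg1, Trem2, Col1a1, Txnip, Sqle, Mt2 and Apoe, further panel genes, had log2 fold changes between −1.02 (Il1b, SE 1.35) and 0.40 (Abca1, SE 0.53).

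**Figure D4:**
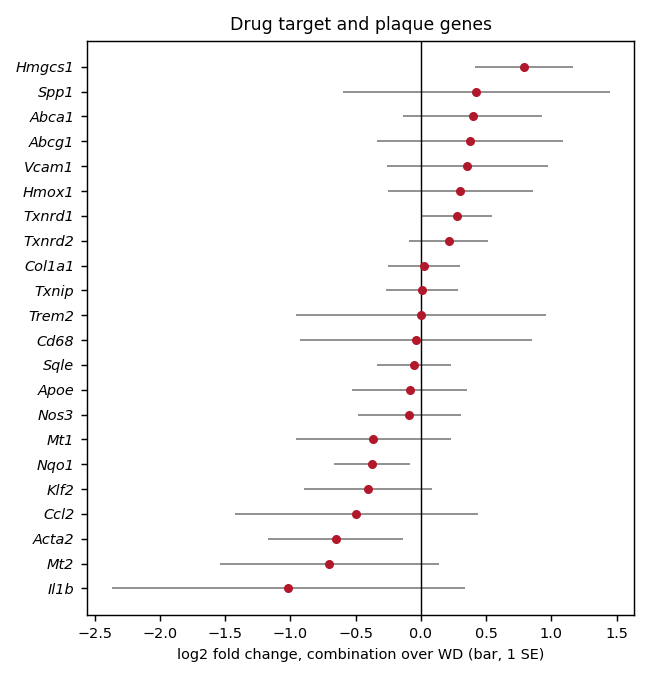
Log2 fold change of the combination over WD for 22 drug target and plaque genes, from edgeR, with bars of 1 SE to either side. The highest is Hmgcs1 at 0.79 and the lowest Il1b at −1.02; no gene passed the test.

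Several lists leaned lower or higher without any member leaving the WD range in both libraries, against 1.54% of all genes tested above and 1.75% below. All 24 cytosolic ribosomal protein genes were fitted lower, against 9207 of all 18055 genes tested, with a median log2 fold change of −0.95. Combination 2 lay below all WD libraries at 19 of the 24 (16.6% of all genes), and combination 1 at 0 (5.94%). WD 2 and WD 5 held the highest WD sums. The summed levels were 9697 and 6427 CPM in the combination libraries, against 32713 and 16909 CPM in WD 2 and WD 5 and 6979 CPM in the lowest WD library. Without WD 2 the median was −0.39, and with limma −0.27. All 12 genes of dendritic cells and MHC class II were fitted lower, with a median of −0.45, which was −0.04 without WD 2, and −0.72 without combination 2 or WD 3 and −0.71 without WD 5. Of 18 plaque chemokines 17 were fitted lower with a median of −0.37, and without WD 2 12 were higher with a median of 0.10. The chemokine median was −0.24 without combination 1, −0.65 without combination 2, −0.61 without WD 3, −0.58 without WD 5 and −0.03 with limma. Of 19 fatty acid and triglyceride synthesis genes 16 were fitted higher (median 0.40), with 12 above WD in combination 2 (17.2% of all genes) and 1 in combination 1 (6.32%). Of 13 LXR targets and efflux genes 11 were fitted higher (median 0.15). Immediate early genes, which respond to stimuli within minutes, did not lean, with 10 fitted higher and 10 lower. They differed between the libraries: 6 of 20 were above WD in combination 1 (6.32% of all genes) and 9 below WD in combination 2 (16.6% of all genes). Fos, a subunit of AP-1, had 225 and 36.2 CPM against 72.5 to 191 CPM in WD.

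Combination 2 held higher levels of heart and fat transcripts than combination 1. Myl4, the atrial light chain of myosin, had 217 CPM in combination 2 and 5.07 CPM in combination 1, against 2.70 to 12.8 CPM in WD, and was 16.9 times the highest of the other 12 libraries. Nppa, atrial natriuretic peptide, had 151 CPM in combination 2 and 0.148 CPM in combination 1, with 0.322 CPM or less in WD, and Bmp10, a ligand made by the right atrium, had 120 CPM and 0, with 0.0358 CPM or less in WD. Of 11 tested atrial and pacemaker genes, 10 lay above WD in combination 2, against 17.2% of all genes, and 1 in combination 1, against 6.32%.

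Myh6, the alpha heavy chain of cardiac myosin, had 7.95 CPM in combination 1 and 625 CPM in combination 2, against 96.5, 0.300, 0.0817, 162 and 0.101 CPM in WD. Myh7, Myom2, Corin and Smpx, also of heart muscle, were likewise highest in combination 2, at 16.0 to 29.0 CPM. The 4 genes that passed DESeq2, Sbk3, Cacna2d2, Hcn4 and Myl4, are all of this atrial list, and Cacna2d2, a calcium channel subunit, was the only one with both libraries above WD, at 0.592 and 10.5 CPM against 0.183 to 0.450 CPM. Without combination 2 the median log2 fold change of the atrial list was 0.37, against 4.52 with it (2.15 with limma), and of the heart sarcomere list −3.25, against 1.54 with it. The part of heart tissue in other results was not tested.

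Fat genes followed the same library. Ucp1, the uncoupling protein of brown fat, had 143 CPM in combination 1 and 990 CPM in combination 2, against 50.03, 117, 584, 153 and 251 CPM in WD. Of 16 tested adipocyte genes 14 lay above WD in combination 2, against 17.2% of all genes. In combination 1, 0 lay above (6.32% of all genes) and 2 below (5.94%). Summed over the list, adipocyte genes had 1679 and 6987 CPM in the combination libraries and 1411 to 3731 CPM in WD. Auranofin 1 and auranofin 2 were above WD too, at 4065 and 6065 CPM. Brown adipocyte sums were 352 and 1817 CPM in the combination libraries and 193 to 1047 CPM in WD. There auranofin 1 and auranofin 2 had 1361 and 3006 CPM. Auranofin 3 and the atorvastatin libraries were inside the WD range for both lists. Without combination 2 the median log2 fold change was −0.61 for adipocyte genes and −0.59 for brown adipocyte genes, against 0.72 and 1.03 with it; without combination 1 they were 1.45 and 1.75.

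**Figure D5:**
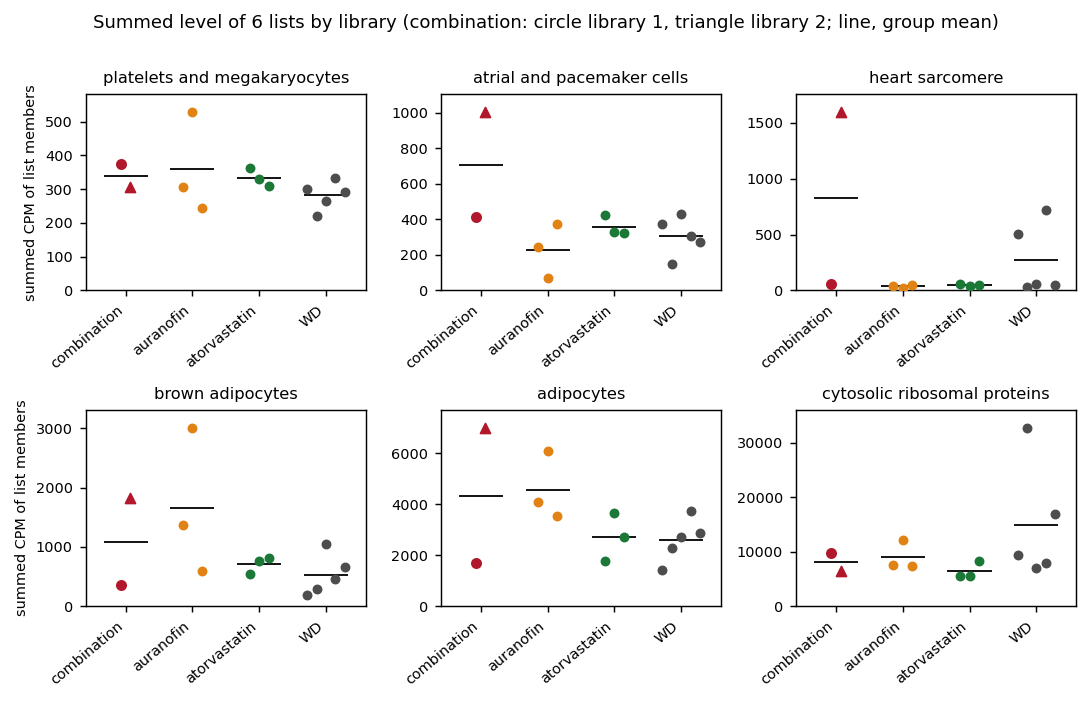
Summed level of the members of 6 gene lists in each library (CPM, linear axes from 0), by group, with the group mean as a line; in the combination group the circle is library 1 and the triangle library 2. The triangle is the highest point for atrial and heart sarcomere genes and for adipocytes, and WD 2 is the highest point for ribosomal proteins at 32713 CPM.

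Set against the single drugs, the combination gave no gene past an adjusted p of 0.05 in edgeR: 0 (0.0%) against auranofin, with 359 genes (1.99%) at an unadjusted p under 0.05, 0 (0.0%) against atorvastatin, with 237 (1.31%), and 0 (0.0%) for the change beyond the sum of the single drugs, with 559 (3.1%). DESeq2 passed 3 genes against auranofin (0.0166%; Hcn4, Myl4 and Cacna2d2), 5 against atorvastatin (0.0277%; Hcn4, Myl4, Sbk3 and Treml1 among them) and 9 beyond the sum (0.0499%), and limma passed 0 in each (0.0%). Treml1 was the platelet gene among them, with a DESeq2 log2 fold change of 3.71 over atorvastatin (adjusted p = 0.0318). The others named are of heart muscle and were high in combination 2. Most of the 9 beyond the sum are also of the heart sarcomere and atrial lists, Myh6, Myh7 and Myl4 among them. Myh6 was low in combination 1 and high in combination 2, WD 1 and WD 4. Itga2b had log2 fold changes of 2.02 (SE 0.46) over auranofin and 2.04 (SE 0.46) over atorvastatin. Por had 0.46 (SE 0.21) over each drug, with an interaction beyond their sum of 0.38 (SE 0.27), and none of these passed.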

How the data were processed

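Whole-number counts per gene were deposited by the authors for 13 libraries of aorta RNA; per the submitters' processing notes they came from STAR 2.6.1d and featureCounts of Subread 1.6.3 on GRCm39. Per the labels, poly-A libraries were not stranded, so reads of a gene and its antisense partner cannot be told apart. Genes were filtered with filterByExpr over the 4 groups, which left 18055, scaled with TMM factors and tested in edgeR 4.0.16 under R 4.3.3 by quasi-likelihood, 1 mean per group and all libraries in the fit. P-values were two-sided and Benjamini-Hochberg adjusted over all tested genes at 0.05. The SE is the log2 fold change divided by the square root of F. DESeq2 1.42.0 and limma 3.58.1 were alternatives, with other scalings, filters, a replicate block and each library left out. The pipeline was tested on simulated data. The combination group, the 49 gene lists, the 25 panel genes and the naming rule were chosen with earlier results of these data known. The rule named panel genes, genes with both combination libraries outside the WD range that had the smallest p (12 per direction), the widest gap (8) or list membership (4), genes past any tool, and 6 leading genes of each combination library. Other list members named were picked after their values were seen. Results for a few genes are not reported here. Figures used matplotlib 3.10.9.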

Additional observations from a re-analysis of the deposited data

Results flagged for a closer look

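Within the 5 WD libraries, 1 library stood apart from the others by more than Dixon's 95% limit for 10 of the named genes, out of 130 gene, list and library measures looked at; chance alone flags about 1 in 20. WD 2 was the high library for Glt8d2 (19.2 CPM), Asb5 (4.74 CPM) and Cdc45 (4.08 CPM), and the low one for Peg10 (0.120 CPM), an imprinted gene with 2.59 and 2.50 CPM in the combination libraries. WD 3 was the low library for Apoe (6.21 CPM) and Bhlhe40 (42.7 CPM). WD 5 was the low library for Flcn (17.1 CPM) and the high one for Ltf (1.01 CPM), lactoferrin of neutrophils, which had 0.185 and 0.283 CPM in the combination libraries. WD 4 was the high library for Nos3 (31.5 CPM), endothelial nitric oxide synthase, and WD 1 the low one for Por (83.5 CPM).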

How the results depend on the processing

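The alternatives for the gene lists were chosen after seeing the data. The 44 named genes with both combination libraries outside the WD range kept the sign of their log2 fold change over WD in all 919 values under the alternatives. These genes were picked by that separation, so a turn of sign could hardly occur. The count is therefore no check on them. The count past an adjusted p of 0.05 over WD was 0, and became 9 with no filter on low counts, 4 with DESeq2 and 0 to 10 when each library was left out (10 without combination 1). Against auranofin it was 3 with DESeq2 and 0 to 8 with a library left out. Against atorvastatin it was 3 with no filter, 5 with DESeq2 and 0 to 8 with a library left out. Beyond the sum of the single drugs it was 9 with DESeq2 and 0 to 2 with a library left out. At an unadjusted p, the 265 genes became 819 with no filter, 165 with a filter of 1 CPM in 2 libraries or more, 119 with the combination and WD libraries alone, 168 with the replicate block and 118 to 823 with a library left out. Deviations of same-numbered libraries from their group means had r between −0.26 and 0.32. With 2 combination libraries these deviations mirror each other, so the values cannot decide whether the numbers mark a pairing. The replicate block left 0 genes past an adjusted p. Genes with both combination libraries above WD were 679 with no filter. With a WD or single-drug library left out they were 271 to 705, and those below WD 313 to 752. With a combination library left out, the count covers the remaining combination library alone. Without combination 1, combination 2 lay above WD at 3300 genes and below at 3176. Without combination 2, combination 1 lay above at 1299 and below at 1149.

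Some log2 fold changes over WD turned sign. With limma these were Ccl2 (0.070), Cd68 (0.28), Col1a1 (−0.024), Mt1 (0.21) and Smpx (−0.069), and the heart sarcomere median was −0.43. With the block they were Col1a1 (−0.036) and Trem2 (−0.33). Trem2 and Txnip were at −0.0137 and −0.0001 with median-of-ratios factors, −0.0062 and −0.0001 with the stricter filter, −0.0059 and −0.0009 with mitochondrial counts left out, and −0.0147 and −0.0002 with DESeq2. With a library left out, the log2 fold change ran from −0.10 to 0.76 for Abca1, −0.29 to 0.053 for Apoe, −0.34 to 0.50 for Cd68, −0.042 to 0.084 for Col1a1, −0.62 to 0.13 for Mt1, −0.98 to 0.069 for Mt2, −0.36 to 0.14 for Nos3, −0.15 to 0.076 for Sqle, −0.30 to 0.53 for Trem2, −0.15 to 0.15 for Txnip and −0.22 to 0.54 for Txnrd2. For heart genes it ran from −1.85 to 3.39 for Corin, −2.70 to 3.70 for Myh6, −3.07 to 3.53 for Myh7, −0.45 to 4.95 for Myl4, −2.47 to 3.84 for Myom2, −0.39 to 5.77 for Sbk3 and −2.26 to 3.29 for Smpx. List medians ran from −3.25 to 2.51 for heart sarcomere, −0.59 to 1.75 for brown adipocytes, −0.61 to 1.45 for adipocytes and −0.65 to 0.10 for plaque chemokines. With the replicate block the medians of fast skeletal muscle and of dendritic cells and MHC class II were −0.07 and −0.74. The cause of these changes was not tested. In libraries of 19703683 and 22932778 counts, levels under 1 CPM rest on few reads.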

Other observations

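Fkbp5, Per1 and Zbtb16 are known to respond to glucocorticoids, so other genes with that property were looked up after these values were seen, with no test. None had both combination libraries outside the WD range. Tsc22d3, a glucocorticoid-induced leucine zipper, had 46.8 and 41.5 CPM in the combination libraries and 21.2 to 75.5 CPM in WD. Sgk1, a kinase, had 122 and 93.0 CPM, against 60.2 to 138 CPM in WD, and Klf9, a transcription factor, had 184 and 180 CPM, against 111 to 283 CPM in WD. Errfi1, a feedback inhibitor of the EGF receptor, had 60.7 and 77.4 CPM, against 41.7 to 102 CPM in WD.

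Other genes with both combination libraries above WD were small in level. Thtpa, thiamine triphosphatase, had 4.10 and 4.30 CPM, against 0.70995 to 3.27 CPM in WD. Asb10 had 1.89 and 2.03 CPM, against 1.103 to 1.52 CPM in WD. Rsad2, viperin, was the 1 of 21 interferon-stimulated genes above WD in both, against 1.54% of all genes tested, at 10.2 and 10.3 CPM against 5.03 to 9.06 CPM. Blk, a B cell kinase, had 0.814 and 0.850 CPM, against 0.123 to 0.731 CPM in WD, and Cpt1b, the muscle carnitine palmitoyltransferase, had 0.333 and 0.850 CPM, against 0.327 CPM or less in WD.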
